A study of Mus musculus with 12 samples.

Results

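The 9 genes described here carry out the metabolism of arginine, nitric oxide and itaconate in macrophages: Nos2, Arg1, Arg2, Ass1, Asl, Gch1, Slc7a2, Odc1 and Acod1. They were chosen by symbol, and all 9 were found among the 56980 genes of a count table. The cells were bone marrow-derived macrophages of the mouse, obtained by growing marrow for 7 days in medium conditioned by L929 cells, and RNA was sequenced in 12 libraries, 3 per group. In cKO_M1 and WT_M1 the cells had received 100 ng/ml lipopolysaccharide (LPS) and 10 ng/ml interferon-gamma, and in cKO_M0 and WT_M0 they had received neither. The cKO groups are labelled RankCre-Regnaes3cKO, a conditional knockout of Regnase-3, the zinc finger RNA-binding protein encoded by Zc3h12c, by a Cre named for the receptor RANK. The WT groups are labelled wild type, with no Cre described for them, so an effect of Cre and one of the deletion cannot be told apart. The age and strain of the mice, the exons deleted and the fraction of cells in which they were deleted were not stated. The stated question was the role of Regnase-3 in the polarization of macrophages.

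Arginine is brought into macrophages by cationic amino acid carriers, among them the product of Slc7a2. The inducible nitric oxide synthase, encoded by Nos2, splits it into nitric oxide and citrulline and needs the cofactor tetrahydrobiopterin, whose synthesis starts with the enzyme of Gch1. The enzymes of Ass1 and Asl turn citrulline back into arginine. The arginases, encoded by Arg1 and Arg2, compete for the same arginine and release urea and ornithine, which the enzyme of Odc1 commits to polyamines. Acod1 encodes the mitochondrial enzyme that diverts a citric acid cycle intermediate into itaconate, a metabolite of activated macrophages. High Nos2 and Acod1 are known marks of LPS and interferon-gamma stimulation, while high Arg1 in mouse macrophages is a known mark of interleukin-4 stimulation.

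The libraries held 41721452 to 42197986 counts each, and M0 and M1 libraries separated along the first principal component (85.1% of the variance). Zc3h12c had 3463, 3652 and 4484 counts in cKO_M1, against 6020, 6392 and 5424 in WT_M1, a log2 fold change of -0.68 (adjusted p = 0.00101). Unstimulated, it had 703, 944 and 751 counts in cKO_M0 and 878, 819 and 794 in WT_M0, groups that overlapped, so whole-gene counts do not check the M0 genotype labels. On the second component, cKO_M0 replicate 1 lay at 2.13, against -11.8 and -11.9 in the other cKO_M0 libraries, towards the WT_M0 libraries at 5.89 to 9.58. WT_M1 replicate 11 lay at 44.9, against 24.0 and 20.0 in the other WT_M1 libraries. In cKO_M1, replicate 9 lay at -19.6, against -37.6 and -33.3, towards the WT_M1 libraries. Without cKO_M1 replicate 9, the log2 fold change of Zc3h12c in M1 was -0.81. For the 9 genes, results that rest on cKO_M0 replicate 1 or WT_M1 replicate 11 are given with and without that library. All 10 macrophage markers were detected in every group, with a summed level of 15058 to 19477 CPM (counts over a TMM-scaled library size). Single markers did differ by edgeR at an adjusted p under 0.05: 3 of the 10 in M1 and 1 in M0. Of all tested genes, 18.6% differed in M1 and 1.62% in M0. Cd14 (log2 0.79) and Itgam (0.25) were higher and Cd68 (-0.46) lower in cKO_M1 than in WT_M1. Mertk was lower in cKO_M0 than in WT_M0 (-0.72). The labels do not say whether replicates were separate cultures or animals, and the p-values reflect only how far these libraries spread, which may be technical.

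On the TMM scale, stimulation raised Slc7a2, Nos2, Gch1, Ass1, Asl, Odc1 and Acod1 in both genotypes (Asl was lower in M1 with library totals alone as the scale), and among stimulated cells the genotypes differed in either direction depending on the gene. With a call set at an adjusted p under 0.05 (edgeR's quasi-likelihood test with Benjamini-Hochberg adjustment over 15110 genes), Slc7a2, Arg1 and Acod1 were higher and Odc1 lower in cKO_M1 than in WT_M1. That is 4 of 9 genes, where 18.6% of all tested genes were called (8.98% higher and 9.67% lower). The 9 were chosen with earlier results of these data known, so these shares are no test of an excess. In 6 of the 9 the cKO_M1 and WT_M1 libraries did not overlap, as for 33.7% of all tested genes. Unstimulated, Odc1 was the only one of the 9 called, and it was higher in cKO_M0 (1.62% of all tested genes called, 0.662% higher and 0.953% lower). The cKO_M0 and WT_M0 libraries did not overlap for 3 of the 9, Arg1, Asl and Odc1, and for 26.2% of all tested genes. The difference of the cKO effect between M1 and M0, an interaction term of the same model, was called for 1 of the 9 genes, again Odc1, and for 8.16% of all tested genes (4.02% higher and 4.14% lower). For M1 against M0, Arg1 reached the minimum level of the low-count filter in 0 of 6 M0 libraries and Arg2 in 1 (of WT_M0). Both thus entered the test through their M1 libraries and had to differ between M1 and M0, so they are described by summed counts only. The other 7, Asl on the TMM scale as above, were called higher without overlap in cKO, where 70.2% of all tested genes were called (34.2% higher and 36.0% lower) and 72.6% did not overlap. The same was true in WT, where 71.4% were called (34.2% higher and 37.1% lower) and 75.6% did not overlap. In bulk RNA, fewer cells expressing a gene and less RNA per cell cannot be told apart.

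**Figure D1:**
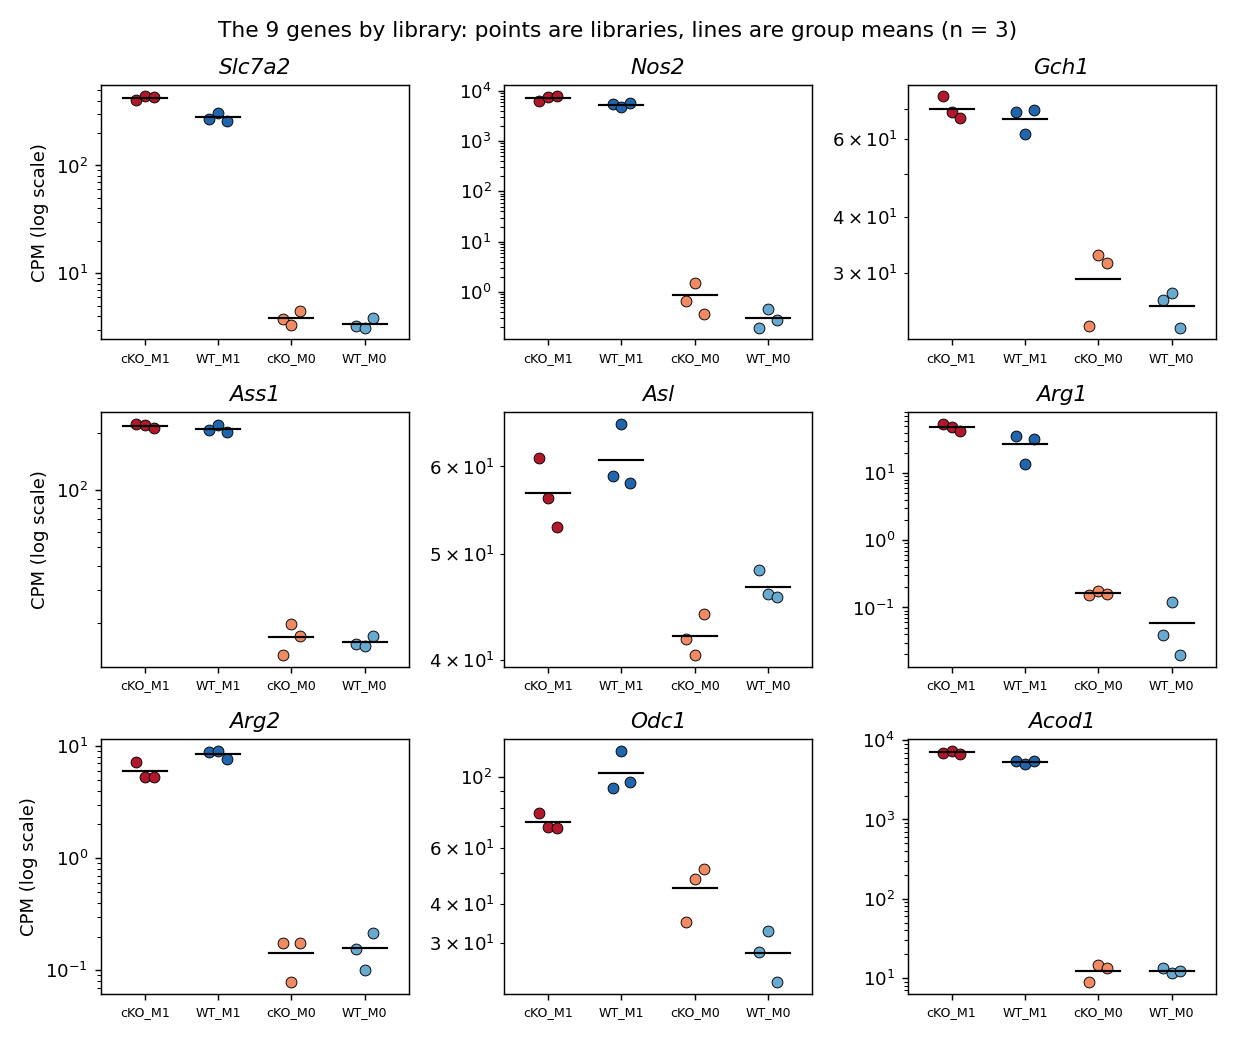
Level of each of the 9 genes by library, in CPM on a log axis, with 1 point per library and a line at the mean of each group (n = 3). On this TMM scale all 9 means are higher in M1 than in M0, which for Asl turns round with library totals alone. Slc7a2, Nos2, Arg1 and Acod1 points of cKO_M1 lie above those of WT_M1, and Arg2 and Odc1 points lie below.

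Slc7a2, the cationic amino acid carrier that macrophages induce on activation, showed the knockout difference with the smallest p among the 9. It had 14124, 15395 and 15273 counts in cKO_M1 libraries, against 9166, 10307 and 8833 in WT_M1 libraries. The groups did not overlap, and the highest WT_M1 library lay well below the lowest of cKO_M1. Its mean was 423 ± 19.3 CPM in cKO_M1 and 279 ± 27.1 CPM in WT_M1 (SD, n = 3 each), a log2 fold change of 0.60 (SE 0.10, 95% interval 0.39 to 0.82, adjusted p = 8.16e-04). The call held without each of the 12 libraries in turn, with log2 fold changes from 0.54 to 0.67, and under all 7 other settings tried. In M0 the carrier was scarce, with 196, 167 and 225 counts in cKO_M0 and 164, 156 and 195 in WT_M0, and these groups overlapped (log2 fold change 0.18, SE 0.13, adjusted p = 0.467). M1 against M0 gave log2 fold changes of 6.79 (SE 0.13) in cKO and 6.36 (SE 0.13) in WT. The cKO effect in M1 exceeded that in M0 by 0.42, with a 95% interval of 0.08 to 0.77, and it did not pass (adjusted p = 0.119). In another annotation build, GENCODE M21, Slc7a2 overlaps the opposite-strand transcript Gm26584; the strand setting of the counting is not given, so their reads cannot be told apart.

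Nos2, the inducible nitric oxide synthase, was close to silent in M0 and among the most abundant transcripts in M1. Its counts were 221928, 262951 and 271281 in cKO_M1, against 186887, 160675 and 191537 in WT_M1. All 3 cKO_M1 libraries were above all 3 of WT_M1. The means were 7144 ± 737 CPM in cKO_M1 and 5302 ± 417 CPM in WT_M1 (SD, n = 3 each), and the log2 fold change of 0.43 (SE 0.19, 95% interval 0.02 to 0.84) did not pass the test over all genes (adjusted p = 0.137). That call depended on the setting: 3 of the 7 other settings passed it, with adjusted p from 6.81e-05 to 0.541 over the 7, and so did the fit without cKO_M0 replicate 2 (adjusted p = 0.0251). Without WT_M1 replicate 11, the lowest WT_M1 library for Nos2, the log2 fold change was 0.35 (adjusted p = 0.331).

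In M0, Nos2 had 35, 78 and 19 counts in cKO_M0 and 10, 23 and 14 in WT_M0. The groups overlapped, since cKO_M0 replicate 3 lay below WT_M0 replicate 5. The log2 fold change of 1.47 (SE 0.43) did not pass (adjusted p = 0.0985); it was 0.77 without cKO_M0 replicate 2, and 2 of 7 other settings passed it. The ratio of summed counts, scaled for library size, was 2.78 (95% interval 1.98 to 3.97, counting error only). For M1 against M0 the same ratio was 8308 in cKO (7005 to 9929) and 17162 in WT (12906 to 23358). Intervals of summed counts, here and below, take each count as independent. They would be too narrow if both mates of a read pair were counted. The interaction for Nos2 was -1.04 with a 95% interval of -2.06 to -0.02 and an adjusted p of 0.201, and it was -0.33 without cKO_M0 replicate 2.

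Gch1, which encodes the first enzyme of tetrahydrobiopterin synthesis, followed stimulation and was not called between the genotypes. It had 2632, 2430 and 2365 counts in cKO_M1 and 2355, 2046 and 2376 in WT_M1, groups that overlapped (log2 fold change 0.07, 95% interval -0.18 to 0.33, adjusted p = 0.715). In M0 it had 1176, 1679 and 1606 counts in cKO_M0 and 1330, 1356 and 1147 in WT_M0, again with overlap (log2 fold change 0.21, adjusted p = 0.374). The lowest cKO_M0 library was replicate 1, and without it the M0 value was 0.36. No fit with 1 library left out called Gch1 in M0 (lowest edgeR adjusted p = 0.0788). Stimulation raised it by log2 fold changes of 1.27 (SE 0.12) in cKO and 1.40 (SE 0.12) in WT. The interval in M1 leaves room for a genotype difference of up to 0.33 on the log2 scale. In GENCODE M21, Gch1 overlaps the pseudogenes Gm18811 on the same strand (664 bases) and Gm49134 on the opposite strand (258 bases). Reads of these overlaps cannot be told apart here.

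Ass1 and Asl, the enzymes that rebuild arginine from citrulline, were not called between the genotypes either. Ass1 had 7838, 7759 and 7436 counts in cKO_M1, against 7045, 7298 and 6876 in WT_M1, which overlapped once scaled for library size (218 ± 6.47 against 209 ± 9.26 CPM, SD, n = 3 each). Its log2 fold change was 0.06 in M1 (95% interval -0.16 to 0.28, adjusted p = 0.742) and 0.09 in M0 (95% interval -0.15 to 0.32, adjusted p = 0.712). Without cKO_M0 replicate 1, the M0 value of Ass1 was 0.22. Stimulation raised Ass1 by log2 fold changes of 3.69 in cKO and 3.72 in WT (SE 0.12 each), where the M0 means were 16.9 ± 3.09 CPM in cKO_M0 and 15.9 ± 1.02 CPM in WT_M0. Asl, the second enzyme of the pair, had 2150, 1981 and 1871 counts in cKO_M1 and 2013, 2184 and 1977 in WT_M1, with overlap (log2 fold change -0.10, 95% interval -0.27 to 0.07, adjusted p = 0.416). In M0 it had 2159, 2062 and 2243 counts in cKO_M0, below the 2472, 2303 and 2320 of WT_M0 in every library, but the log2 fold change of -0.15 did not pass (adjusted p = 0.331). Asl was the gene of the 9 that moved least on stimulation: 0.43 in cKO and 0.38 in WT (log2, SE 0.08 each), values that turned to -0.11 in cKO and -0.20 in WT when library totals alone set the scale, under which the median of all genes was -0.58 in cKO and -0.65 in WT. On the TMM scale those medians were -0.04 in cKO and -0.07 in WT, so the rise of Asl is one relative to most other genes.

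The arginases had fold changes of opposite sign in M1. Arg1, the cytosolic arginase, had 1909, 1728 and 1493 counts in cKO_M1, against 1209, 455 and 1107 in WT_M1. Every cKO_M1 library was above every WT_M1 library, and WT_M1 replicate 11 lay far below the other WT_M1 libraries. The means were 48.5 ± 6.01 CPM in cKO_M1 and 27.2 ± 11.8 CPM in WT_M1 (SD, n = 3 each), a log2 fold change of 0.84 (SE 0.24, 95% interval 0.33 to 1.35, adjusted p = 0.0238). Without WT_M1 replicate 11 it was 0.50 and still passed; without cKO_M1 replicate 7 or 8 it was 0.74 (adjusted p = 0.0777) or 0.81 (adjusted p = 0.0765) and did not. DESeq2 (adjusted p = 0.118) and a fit of the 2 M1 groups alone (adjusted p = 0.0510) did not call it either, while 5 of the 7 other settings did.

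In M0, Arg1 was barely detected, with 8, 9 and 8 counts in cKO_M0 and 2, 6 and 1 in WT_M0. These low counts did not overlap, yet the fold change was uncertain (log2 1.42, SE 0.97, adjusted p = 0.450), and the ratio of summed counts was 2.75 with a 95% interval from 1.24 to 6.70 for counting error only. That interval was not recomputed with halved counts, so whether it would still exclude a ratio of 1 is not known. Arg1 summed counts were 298 times higher in cKO_M1 than in cKO_M0 (95% interval 201 to 460) and 461 times higher in WT_M1 than in WT_M0 (242 to 1009).

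Arg2, the mitochondrial arginase, was lower in cKO_M1 but not called. It had 255, 186 and 189 counts in cKO_M1, all below the 301, 302 and 261 of WT_M1. The means were 5.95 ± 1.12 CPM in cKO_M1 and 8.51 ± 0.757 CPM in WT_M1 (SD, n = 3 each), with a log2 fold change of -0.51 (SE 0.18, 95% interval -0.90 to -0.13) that just missed the threshold (adjusted p = 0.0576). It passed in 6 of the 7 other settings, without cKO_M1 replicate 7 (-0.69, adjusted p = 0.0282) and without cKO_M0 replicate 2 (-0.51, adjusted p = 0.0440). In M0 it had 9, 4 and 9 counts in cKO_M0 and 8, 5 and 11 in WT_M0, with overlap and few counts (log2 -0.14, 95% interval -1.03 to 0.76). The ratio of summed counts was 41.5 in cKO_M1 against cKO_M0 (95% interval 27.2 to 66.8) and 53.9 in WT_M1 against WT_M0 (36.0 to 84.5). Arg2 overlaps the opposite-strand genes Gm48780 and Vti1b in GENCODE M21, and reads of such pairs cannot be told apart here; Vti1b itself had a log2 fold change of -0.02 in cKO_M1 against WT_M1.

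The 250 bases before the start of Acod1 and Odc1, the called genes with opposite directions in M1 for which RefSeq gave a promoter, are shown for their different make-up. They are read 5′ to 3′ towards the start site from RefSeq on GRCm38.p6, Acod1 at chr14:103046762-103047011 and Odc1 at chr12:17544623-17544872, both on the plus strand. Capitals mark a match, on either strand, to 1 of 6 motifs searched: the TATA box (TATAAA), the interferon-gamma activated site GAS (TTCNNNGAA), the core of the interferon-stimulated response element (GAAA, any pair of bases, GAAA), the NF-kB consensus, AP-1 (TGANTCA) and the E-box bound by MYC (CACGTG).
Acod1: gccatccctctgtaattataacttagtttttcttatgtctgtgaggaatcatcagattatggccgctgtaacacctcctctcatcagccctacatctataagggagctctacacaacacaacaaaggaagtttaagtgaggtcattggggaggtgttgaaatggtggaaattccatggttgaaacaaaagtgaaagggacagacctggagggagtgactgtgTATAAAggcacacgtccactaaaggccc
Odc1: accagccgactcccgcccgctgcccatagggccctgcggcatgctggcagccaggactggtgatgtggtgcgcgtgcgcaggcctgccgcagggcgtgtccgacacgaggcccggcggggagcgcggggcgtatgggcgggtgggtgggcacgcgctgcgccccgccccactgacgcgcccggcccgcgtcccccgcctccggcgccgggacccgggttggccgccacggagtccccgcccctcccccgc
Acod1 held a TATA box 28 bases before its start, as counted from the first base of the match, and no other match. Odc1 held none of the 6, and 80.0% of its window was G or C, against 44.4% for Acod1. Among 32851 mouse promoters of the same length, 12.4% held TATAAA, 7.02% the GAS letters, 2.98% the ISRE core, 7.25% the NF-kB consensus, 6.75% the AP-1 letters and 6.02% CACGTG. The windows of Gch1, with an NF-kB consensus match 10 bases and a TATAAA on the minus strand 188 bases before the start, and of Ass1, with CACGTG 36 bases before it, were also read, so 4 of the 9 genes had a window. A match is a run of letters, and none of these data measure binding there.

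Acod1, the itaconate-making enzyme, was the most abundant of the 9 per length in M1. It had 246422, 259187 and 236193 counts in cKO_M1, against 186974, 167642 and 186518 in WT_M1. The cKO_M1 libraries were all higher, without overlap. Means of 7009 ± 335 CPM in cKO_M1 and 5323 ± 248 CPM in WT_M1 (SD, n = 3 each) gave a log2 fold change of 0.40 (SE 0.13, 95% interval 0.13 to 0.67, adjusted p = 0.0400). This call was close to the threshold. It was lost without WT_M0 replicate 6 (0.40, adjusted p = 0.0548), cKO_M1 replicate 7 (0.39, adjusted p = 0.0764) or cKO_M1 replicate 8 (0.35, adjusted p = 0.139). It was also lost without WT_M1 replicate 10 (0.41, adjusted p = 0.0790), 11 (0.34, adjusted p = 0.144) or 12 (0.40, adjusted p = 0.0740), and with DESeq2's size factors in edgeR (0.38, adjusted p = 0.0522).

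In M0, Acod1 had 457, 741 and 681 counts in cKO_M0 and 679, 579 and 626 in WT_M0. The groups overlapped and their means, 12.3 ± 3.01 CPM in cKO_M0 and 12.4 ± 0.858 CPM in WT_M0 (SD, n = 3 each), were alike (log2 -0.02, 95% interval -0.31 to 0.28, adjusted p = 0.972). The lowest library was cKO_M0 replicate 1, and without it the value was 0.18 (adjusted p = 0.362). Stimulation raised Acod1 by log2 fold changes of 9.16 (SE 0.18) in cKO and 8.75 (SE 0.18) in WT. The interaction, 0.41 (95% interval 0.01 to 0.81), did not pass (adjusted p = 0.192).

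Odc1, the ornithine decarboxylase that opens polyamine synthesis, was the 1 gene of the 9 called in both states, in opposite directions, and the 1 whose difference between the states passed. It had 2715, 2453 and 2442 counts in cKO_M1, all below the 3153, 4017 and 3297 of WT_M1. In M0 it had 1802, 2441 and 2617 counts in cKO_M0, all above the 1444, 1647 and 1152 of WT_M0. The M1 means were 71.9 ± 4.50 CPM in cKO_M1 and 103 ± 15.3 CPM in WT_M1 (SD, n = 3 each), a log2 fold change of -0.52 (SE 0.15, 95% interval -0.84 to -0.20, adjusted p = 0.0234). The M0 means were 44.7 ± 8.70 CPM in cKO_M0 and 27.9 ± 5.12 CPM in WT_M0 (SD, n = 3 each), a log2 fold change of 0.68 (SE 0.15, 95% interval 0.36 to 1.00, adjusted p = 0.0442). The difference of these effects was -1.20 (SE 0.21, 95% interval -1.65 to -0.75, adjusted p = 0.00460), and it passed without each of the 12 libraries, with values from -1.35 to -1.07. Odc1 rose on stimulation by 0.68 (SE 0.15) in cKO and 1.88 (SE 0.15) in WT on the log2 scale; with library totals alone as the scale, the rise in cKO was 0.15 (adjusted p = 0.348).

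The separate Odc1 calls were less firm than their difference. In M1 the call was lost without cKO_M1 replicate 8 (-0.51, adjusted p = 0.0704) or WT_M1 replicate 11 (-0.41, adjusted p = 0.104), and it held under all 7 other settings. In M0 it was lost without cKO_M0 replicate 2 (0.63, adjusted p = 0.102) or 3 (0.57, adjusted p = 0.234) and without WT_M0 replicate 4 (0.69, adjusted p = 0.127) or 6 (0.55, adjusted p = 0.265). Leaving out an M1 library had the same effect for cKO_M1 replicate 8 (0.67, adjusted p = 0.0617) and WT_M1 replicates 10 (0.67, adjusted p = 0.0608) and 12 (0.67, adjusted p = 0.0574). Without cKO_M0 replicate 1, the library that stood apart, Odc1 differed by 0.83 (adjusted p = 0.00663). A fit of the 2 M0 groups alone gave 0.67 (adjusted p = 0.0512). In GENCODE M21, Odc1 overlaps the small nucleolar RNA gene Gm22748 on the same strand (136 bases), and reads there cannot be told apart.

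**Figure D2:**
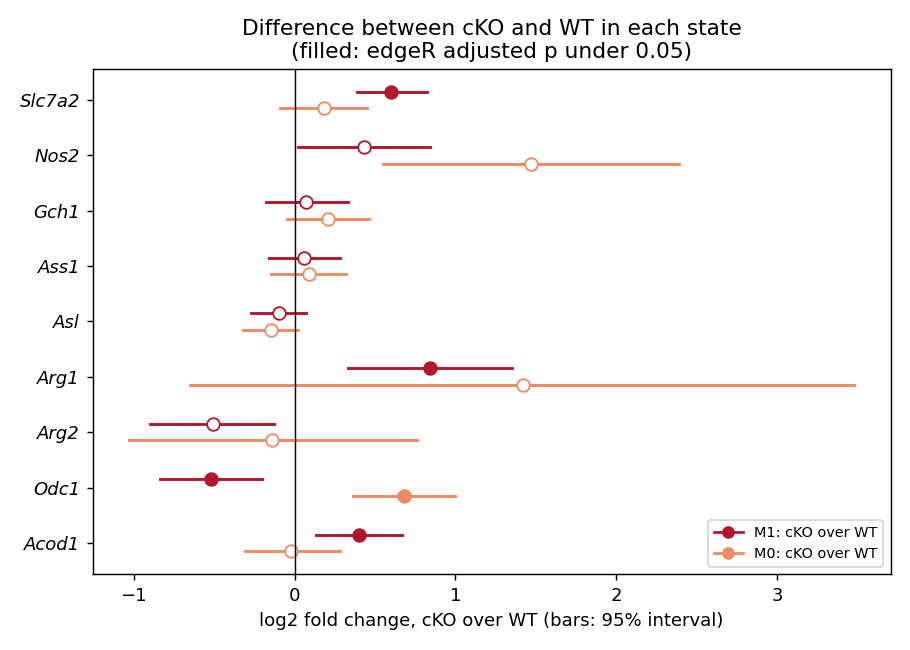
Log2 fold change of cKO over WT for each of the 9 genes (rows), in M1 (upper, dark) and M0 (lower, light), with 95% intervals from edgeR; filled points have an adjusted p under 0.05. Odc1 is at -0.52 in M1 and 0.68 in M0, and Slc7a2, Arg1 and Acod1 are the filled points to the right of 0 in M1.

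Summed levels of marker genes of some other cells differed with genotype beside these results. The 7 B and plasma cell markers, 4 of them tested, summed to 0.341 to 0.766 CPM in cKO_M1 and 3.16 to 5.20 CPM in WT_M1. In M0 they summed to 32.9 to 62.4 CPM in cKO_M0 and 53.7 to 70.6 CPM in WT_M0, with Ms4a1 at 0 in WT_M0. Of the 4 tested, 1 was called in M1 (Ighm, log2 -3.20 in cKO_M1 against WT_M1) and 0 in M0. Of all tested genes, 18.6% were called in M1 and 1.62% in M0. Cd79b went the other way in M1, at 0.92 without overlap, and was not called (edgeR adjusted p = 0.170). The antibody light chain gene Igkc was at 0 counts in all 3 cKO_M1 libraries and had 31, 60 and 43 counts in WT_M1. Igkc was not called in M1 either (edgeR adjusted p = 0.0775). Unstimulated, it had 318, 4 and 0 counts in cKO_M0, with the high value in the replicate 1 that stood apart, and 386, 171 and 341 in WT_M0. The 7 mast cell, basophil and eosinophil markers summed to 0.653 to 1.27 CPM in cKO_M1 and 1.71 to 2.02 CPM in WT_M1, with Fcer1a, Prg2 and Epx at 0 in both. They did not overlap in M0 either, at 5.47 to 8.85 CPM in cKO_M0 and 9.89 to 10.52 CPM in WT_M0, with Fcer1a and Epx at 0 in both. Neutrophil markers overlapped, at 7.30 to 16.0 CPM in cKO_M1 and 6.49 to 11.02 CPM in WT_M1. The part of these cells in the results above was not tested.

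Per length of transcript, the 9 genes spanned a wide range of levels in M1. On the RPKM scale (CPM per kilobase of the deposited gene length), Acod1 stood at 2672 in cKO_M1 and 2029 in WT_M1, which ranked it 10 in cKO_M1 and 16 in WT_M1 among 15110 genes. Nos2 came next at 1609 in cKO_M1 and 1194 in WT_M1, ranks 22 in cKO_M1 and 35 in WT_M1. Together these transcripts took 1.11% to 1.24% of the counts of a cKO_M1 library and 0.782% to 0.901% of a WT_M1 library, against at most 0.00194% in cKO_M0 and 0.00165% in WT_M0. Ass1 followed at 90.2 RPKM in cKO_M1 and 86.5 in WT_M1, then Slc7a2 at 46.3 in cKO_M1 and 30.5 in WT_M1.

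The lower part of the order differed between genotypes. In cKO_M1, Arg1 (21.8 RPKM) and Odc1 (21.1) came after Slc7a2 and overlapped each other, followed by Asl (11.7) and Gch1 (11.2), which also overlapped, and by Arg2 (4.17). In WT_M1, Odc1 (30.3 RPKM) overlapped Slc7a2, and Asl (12.6), Arg1 (12.2) and Gch1 (10.7) overlapped in turn, with Arg2 (5.96) last. Before stimulation the order was another one. Odc1 was highest in cKO_M0 (13.1 RPKM), ahead of Asl (8.72) and Ass1 (6.99) with no overlap between neighbours. In WT_M0 Asl (9.66), Odc1 (8.20) and Ass1 (6.59) were the top 3, and neighbours among them overlapped. Acod1 and Gch1 followed near 4 to 5 RPKM in both, and Slc7a2, Nos2, Arg1 and Arg2 all had under 1 RPKM.

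**Figure D3:**
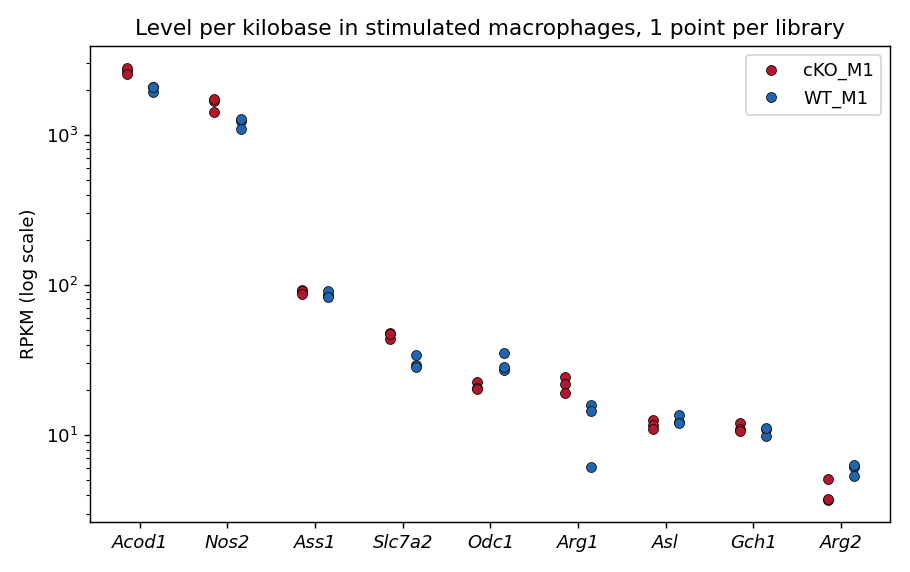
Level per kilobase (RPKM, log axis) of the 9 genes in M1, 1 point per library, cKO_M1 left of WT_M1. The lowest Nos2 library, in WT_M1, stands at 1088 RPKM and the lowest Acod1 library at 1920, while Arg2 lies at 4.17 RPKM on average in cKO_M1 and 5.96 in WT_M1.

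The balance of Nos2 to Arg1 within a library needs no scaling between libraries. On the length-scaled log2 scale it was 5.87, 6.26 and 6.51 in cKO_M1 and 6.28, 7.47 and 6.44 in WT_M1. The groups overlapped, with a difference of -0.52 (exact two-sided permutation p = 0.40, where 3 against 3 cannot go below 0.10), and the high WT_M1 value was that of replicate 11, without which the difference was -0.15. In M0 it was 1.13, 2.12 and 0.25 in cKO_M0 and 1.33, 0.94 and 2.81 in WT_M0 (difference -0.53, exact permutation p = 0.60). For Acod1 to Arg1 the M1 means were 6.95 ± 0.15 in cKO_M1 and 7.50 ± 0.69 in WT_M1 (SD, n = 3 each; exact permutation p = 0.20), a difference of -0.55 that was -0.15 without WT_M1 replicate 11. The M0 means were 5.97 ± 0.32 in cKO_M0 and 7.86 ± 1.38 in WT_M0 (SD, n = 3 each), without overlap and at the smallest p the exact permutation test allows, 0.10; they rest on 1 to 9 Arg1 counts per library. These are 4 comparisons of 1 kind, and none could pass a threshold of 0.05.

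The other genes of the pathway moved in both directions in M1. Of 17 tested genes of arginine transport and catabolism, 2 were higher and 3 lower in cKO_M1 than in WT_M1, with a median log2 fold change of 0.03, against 0.02 over all tested genes. Of all tested genes, 18.6% were called in M1 (8.98% higher and 9.67% lower). The lists were chosen with earlier results of these data known, so their counts are no test of an excess. Slc7a1, the housekeeping cationic amino acid carrier, had 897, 977 and 1666 counts in cKO_M1 and 1905, 2766 and 2063 in WT_M1, so that it fell (log2 -0.99, SE 0.23, adjusted p = 0.00830) where Slc7a2 rose. Without cKO_M1 replicate 9, the value for Slc7a1 was -1.33. Slc3a2, the heavy chain shared by several amino acid exchangers, fell to 927 ± 55.8 CPM in cKO_M1, against 1504 ± 154 CPM in WT_M1 (SD, n = 3 each; log2 -0.70, SE 0.08, adjusted p = 9.79e-05). Slc7a6, a light chain that exchanges arginine for neutral amino acids, rose by 0.52 (SE 0.12, adjusted p = 0.00864). Aldh18a1, which makes the proline and ornithine precursor from glutamate, fell by 0.60 (SE 0.13, adjusted p = 0.00505). Neither carrier differed detectably in M0 (Slc7a1 0.30, adjusted p = 0.508; Slc3a2 -0.04, adjusted p = 0.848), and the difference between the states passed for Slc3a2 (-0.66, adjusted p = 0.00497). For Slc7a1 that difference (-1.29, adjusted p = 0.0263) did not pass when cKO_M1 replicate 8, WT_M1 replicate 11, cKO_M0 replicate 2 or 3, or WT_M0 replicate 4 or 6 was left out, with values of -1.33 to -1.10 and adjusted p of 0.0509 to 0.0749.

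Among 21 tested polyamine genes, 3 were higher and 2 lower in cKO_M1, with a median of 0.00. Over all tested genes, 8.98% were called higher and 9.67% lower. Azin1, the antizyme inhibitor that protects ornithine decarboxylase from breakdown, had 9729, 9626 and 10878 counts in cKO_M1 and 16947, 18039 and 15086 in WT_M1. It fell with Odc1 (log2 -0.79, SE 0.10, adjusted p = 9.79e-05), and its interaction of -1.03 also passed (adjusted p = 8.87e-04), while its M0 difference of 0.25 did not (adjusted p = 0.184). Amd1, which makes the aminopropyl donor for spermidine, moved the other way. It had 1267, 1357 and 1052 counts in cKO_M1 and 756, 450 and 688 in WT_M1 (log2 0.90, SE 0.15, adjusted p = 7.12e-04); reads could be shared with its close copy Amd2, which makes the value uncertain. Mat2a, which makes S-adenosylmethionine, rose by 0.65 (SE 0.08, adjusted p = 9.92e-05). Both were lower in M1 than in M0: the log2 fold change of Amd1 was -0.96 in cKO and -1.61 in WT, and that of Mat2a -1.33 in cKO and -1.91 in WT.

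**Figure D4:**
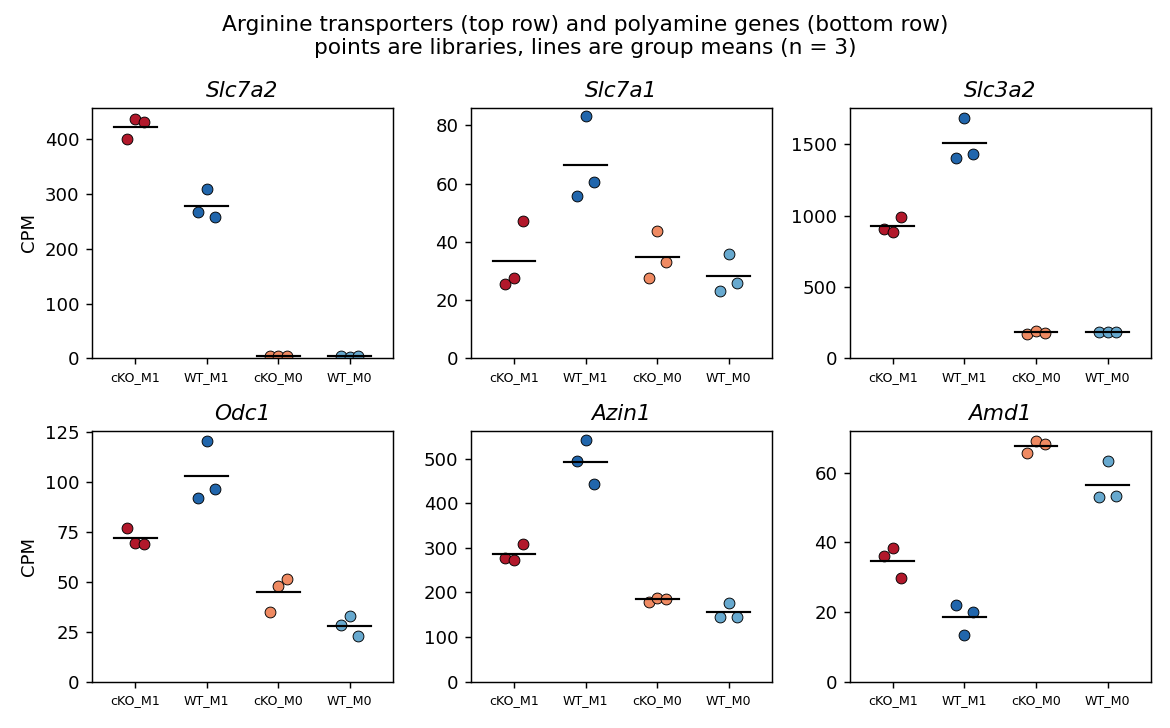
CPM by library (linear axes from 0) of Slc7a2, Slc7a1 and Slc3a2 (arginine and amino acid transport, top) and of Odc1, Azin1 and Amd1 (polyamines, bottom), with a line at each group mean (n = 3). In M1, cKO points lie above WT points for Slc7a2 and Amd1 and below them for Slc7a1, Slc3a2, Odc1 and Azin1.

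Of 7 tested genes of tetrahydrobiopterin synthesis and recycling, 1 was higher and 2 lower in cKO_M1 (median 0.16). For each list of this paragraph, the shares over all tested genes were 8.98% called higher and 9.67% lower, with a median of 0.02. Cbr1, a carbonyl reductase that can act in this synthesis, fell by 0.68 (SE 0.13, adjusted p = 0.00201). Of 18 genes of nitric oxide signalling and handling, 2 were higher and 0 lower (median -0.03; 4 had an unadjusted p under 0.05), among them Glrx, the glutaredoxin that removes glutathione from proteins (0.56, SE 0.11, adjusted p = 0.00296). Of 31 genes of the citric acid cycle and itaconate handling, 1 was higher and 1 lower (median 0.03), and Got1, the cytosolic aspartate aminotransferase, fell by 0.46 (SE 0.10, adjusted p = 0.00601).

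Transcription factors known to act on Nos2, Acod1 or Arg1 were called in 8 of 25 cases in M1, 3 higher and 5 lower (median 0.02), where 18.6% of all tested genes were called, 8.98% higher and 9.67% lower. This list, too, was chosen with earlier results of these data known, so the shares are no test of an excess. Cebpd, an early C/EBP factor of inflammation, had 403, 405 and 336 counts in cKO_M1 and 170, 102 and 149 in WT_M1 (log2 1.39, SE 0.15, adjusted p = 5.17e-05). Nfkb1, which encodes the p50 subunit of NF-kB and its precursor, rose by 0.53 (SE 0.08, adjusted p = 2.99e-04). Atf4, the factor of the amino acid response, fell to 405 ± 20.9 CPM in cKO_M1, against 625 ± 94.8 CPM in WT_M1 (SD, n = 3 each; log2 -0.63, SE 0.10, adjusted p = 4.98e-04), and its interaction passed as well (-0.80, adjusted p = 0.00409). Cebpa, a C/EBP factor of myeloid differentiation, and Klf4 fell by 0.63 (SE 0.12) and 0.43 (SE 0.11).

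Genes of alternative activation, a program with which Arg1 is usually grouped, were lower in cKO_M1 or not called, with 1 exception, Il4ra. Of 15 tested, 1 was higher and 4 lower in cKO_M1, with a median of -0.73, against 0.02 over all tested genes. Of all tested genes, 8.98% were called higher and 9.67% lower. The list was chosen with earlier results of these data known, so these shares are no test of an excess. Mrc1, the mannose receptor, had 287, 358 and 467 counts in cKO_M1 and 679, 881 and 614 in WT_M1 (log2 -1.03, SE 0.17, adjusted p = 8.16e-04). Of the 27 genes named from these lists or as the targeted gene that were called in M1, 18 stayed called without each library in turn. Those that did not included Mtap, Pts, Calm3, Suclg1, Ccl24, Il4ra, Egr2 and F13a1.

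Few genes of these 7 lists were called between the genotypes before stimulation, as was so for all tested genes (1.62% called). Glrx (0.51, SE 0.11, adjusted p = 0.0438) and Idh3a, a subunit of isocitrate dehydrogenase (0.39, SE 0.09, adjusted p = 0.0468), were higher in cKO_M0. Ppard, a lipid-sensing nuclear receptor, was lower (-0.47, SE 0.10, adjusted p = 0.0421). These 3 calls, like that of Odc1, ended when any of cKO_M0 replicates 2 and 3 or WT_M0 replicates 4 and 6 was left out, with adjusted p for the 3 from 0.0914 (Glrx, without cKO_M0 replicate 2) to 0.293 (Idh3a, without WT_M0 replicate 6). They also ended without cKO_M1 replicate 8 or WT_M1 replicate 12, those of Glrx and Idh3a without WT_M1 replicate 10, and that of Idh3a without cKO_M0 replicate 1 (adjusted p = 0.0620). The count of called genes in M0 fell to 1 without cKO_M0 replicate 3 and was 452 without cKO_M1 replicate 7.

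Stimulation called far more of each list, as it did of all genes (71.4% in WT and 70.2% in cKO). These list counts are on the TMM scale and were not repeated with library totals alone. On that other scale, 23.5% of all called genes were higher in WT, against 48.0% on the TMM scale. In cKO the shares were 24.2% and 48.7%. In WT_M1 against WT_M0, 5 genes of arginine transport and catabolism were higher and 12 lower, with Slc3a2 at 3.02 and Gatm, which uses arginine for creatine synthesis, at -2.01. Ddah2, an enzyme that degrades methylated arginines, had -3.23. Of the tetrahydrobiopterin genes other than Gch1, 1 was higher and 6 lower, among them Spr (-1.71) and Qdpr (-1.52), which encode the last enzyme of the synthesis and the one that recycles the cofactor. In the list of citric acid cycle and itaconate handling, Idh2 (-2.83), Suclg2 (-2.27) and Idh1 (-1.64) were lower, although 15 genes of that list were higher and 12 lower. Among the factors, Irf1 (4.03), Cebpb (3.14) and Atf4 (2.49) were higher. In cKO_M1 against cKO_M0 the counts were 4 higher and 12 lower for arginine transport and catabolism, and 0 higher and 5 lower for tetrahydrobiopterin.

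Genes whose pattern over the 12 libraries was most like that of a member were found by the Pearson correlation of log2 CPM among 9247 genes with a mean of at least 5 CPM. These values are high because M0 and M1 libraries form separate clusters, so they describe the M0 to M1 step. For Nos2 the nearest were Lrrc8c, Hmox1 and Serpina3f, and for Acod1 Coa5, Stx2 and Gbp2. Ass1 was nearest to Coa5, Serpina3f and Jak2, and Arg1 to Rbms1, Dmwd and Glrx. Odc1 was nearest to Ppp1r2, Rars and Abcf2, with r of 0.979 to 0.983 over the 12 libraries. Within the 6 M1 libraries alone, r was 0.85 to 0.99 for the genes nearest Odc1, 0.72 to 0.93 for Arg1, 0.51 to 0.82 for Acod1, 0.39 to 0.69 for Ass1 and 0.34 to 0.88 for Nos2. The lowest of these were Serpina3f with Nos2 (0.34) and with Ass1 (0.39). In the 6 M0 libraries, Serpina3f had r of 0.71 with Nos2 and 0.82 with Ass1. Each set of 6 holds both genotypes and was part of the 12 libraries by which the genes were picked.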

How the data were processed

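The authors deposited raw counts per gene with a gene length for 12 libraries, not normalized. The tools named per the submitters' processing notes, without their roles, are Trimmomatic 0.39, HISAT2 2.2.1, featureCounts 2.0.3 and SAMtools 1.16.1, with the build GRCm39; strand setting, multi-mapping reads and annotation were not given in the sources used here. Of the 56980 gene IDs, 52073 matched a symbol, and the rest held 0.156% to 0.243% of a library. Between 1 and 10, 60.9% of values were even, so counts were also tested halved.

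Counts were tested with edgeR 4.0.16 (quasi-likelihood F-test) in R 4.3.3 over 15110 genes kept by filterByExpr (minimum count 10, minimum total 15), scaled by TMM, with 1 mean per group over all 12 libraries and Benjamini-Hochberg adjustment; the threshold was 0.05. The common biological coefficient of variation was 0.111. The SE is the log2 fold change over the root of F. CPM is on the TMM scale and RPKM divides it by the length. Ratios of summed counts have exact 95% intervals for counting error, which take each count as independent and were not recomputed with halved counts. The scripts were tested on simulated counts.

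Alternatives were DESeq2 size factors in edgeR, library totals alone, no filter, halved counts, only the groups compared, limma-voom (limma 3.58.1), DESeq2 1.42.0 and each library left out. Named genes were, per pathway list, up to 5 with the smallest p among those called in cKO_M1 against WT_M1, up to 2 in cKO_M0 against WT_M0 and up to 3 in WT_M1 against WT_M0. Likeness took the 3 nearest genes for Nos2, Arg1, Ass1, Acod1 and Odc1. The 9 members and the lists were chosen with earlier results of these data known. Promoters came from RefSeq on GRCm38.p6 and overlaps from GENCODE M21; their coordinates were not mixed with those of the files' build. Neighbouring transcripts without a symbol match were not analysed here. Values of some genes of the lists are not reported here, though the counts over each list include them.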

Additional observations from a re-analysis of the deposited data

Results flagged for a closer look

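Odc1 was picked out because the cKO effect differed between M1 and M0 by a test of the difference itself. The cKO effect was -0.52 in M1 and 0.68 in M0 (log2), and the difference was -1.20 (SE 0.21, 95% interval -1.65 to -0.75, edgeR adjusted p = 0.00460). Each of the 3 cKO_M1 libraries was below each WT_M1 library, and each of the 3 cKO_M0 libraries was above each WT_M0 library. With groups of 3, no test of single outlying libraries was made.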

How the results depend on the processing

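No paired analysis was possible because the groups share no replicate numbers. Counts of called genes moved by more than 1.5 times in M0, where 244 genes became 1182 without the filter, 394 with only the groups compared, 491 with limma-voom and 827 with DESeq2. Of the 9 genes, 1 was called in M0, and 2 without the filter, 0 with only the groups compared and 2 with DESeq2. The interaction count of 1233 became 1972 without the filter, with 3 of the 9 genes in place of 1. Leaving out 1 library gave 1658 to 3082 genes and 1 to 6 of the 9 in M1 (1658 without WT_M1 replicate 11, 1694 without cKO_M1 replicate 8), 1 to 452 genes and 0 to 1 of the 9 in M0, and 565 to 1576 genes in the interaction. With library totals alone, Asl was -0.11 in cKO and -0.20 in WT for M1 against M0, and the Ass1 interaction was 0.02. With 1 library left out, signs turned within -0.37 to 0.16 for Arg2, -0.04 to 0.22 for Ass1, -0.15 to 0.18 for Acod1, -0.20 to 0.03 for Zc3h12c and -0.08 to 0.00 for Slc3a2 in M0. The same held within -0.16 to 0.10 for the Ass1 interaction, -0.01 to 0.10 for the Asl interaction and -1.0 to 0.03 for the M0 ratio of Nos2 to Arg1. The share of called genes that were higher in cKO_M1 was 48.2%, and 61.5% with library totals alone; in M0 it was 41.0%, and 60.0% without the filter and 51.0% with only the groups compared. For M1 against M0 it was 48.7% in cKO and 48.0% in WT, and 24.2% in cKO and 23.5% in WT with library totals alone; for the interaction it was 49.3%, and 60.5% with library totals alone. The causes were not tested. In M0, counts of 1 to 11 per library limit Arg1 and Arg2.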
